A study of Mus musculus with 9 samples.

Results

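In round spermatids (RS) cultured for 24 h, 65 genes fell when oxamate was added and fell again when octyl-L-2HG was added on top of oxamate. They were chosen by their own values in these libraries, out of 25128 genes whose counts over the 9 libraries came to 10 or more. A member had a mean normalized count of at least 100 over all libraries, a mean with oxamate of at most 0.8 times the vehicle mean, and a mean with both compounds of at most 0.8 times the oxamate mean. In addition, every oxamate library lay below every vehicle library, and every library with both compounds lay below every oxamate library. Ahnak, Ddr1 and Cobll1 were left out by name, and without that step 67 genes met the rule. Because the rule selected on both steps, the falls described here are a description of the chosen genes and not a test of them.

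The cells were round spermatids of wild-type adult mice, sorted by flow cytometry from testes whose germ cells carried the tdTomato reporter switched on by a Stra8-driven Cre. Vehicle cultures received 0.15% DMSO, oxamate cultures 24 mM oxamate in the same DMSO, and the cultures with both compounds 24 mM oxamate with 0.3 mM octyl-L-2HG, again in 0.15% DMSO. Oxamate blocks lactate dehydrogenase (LDH), and octyl-L-2HG is an ester of L-2-hydroxyglutarate (L-2HG) that enters cells. Each group had 3 libraries: vehicle had numbers 1 to 3, oxamate 4 to 6, and the combination 7 to 9. Cultures with octyl-L-2HG alone were not analysed here, so the later step is a change on an oxamate background. The libraries of a group came from replicate cultures, but the sources do not say whether these were of separate animals, so p-values measure the spread between cultures, which may not include that between animals.

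Libraries held 32339533 to 39888396 counted reads, and between 26451 and 28419 genes had a count in each. The number of genes called lower with oxamate, 306, depended on single libraries: it was 705 without oxamate library 4, 121 without vehicle library 2 and 189 without vehicle library 3. Library 4 was the lowest oxamate library in 39 of the 65 genes and the highest in 16. With library 4 left out the rule chose 57 genes, of which 47 were among the 65. Because these are bulk RNA samples, fewer cells of a type and less RNA per cell cannot be told apart.

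Round spermatids are the haploid cells that follow meiosis and are rebuilt into sperm. Their nucleus is repacked from histones to transition proteins and then protamines, the acrosome and the perinuclear theca form over it, and many transcripts of these late proteins are made early and stored until translation. L-2HG resembles 2-oxoglutarate and can inhibit enzymes that use it, among them histone and DNA demethylases, and the testis-specific enzyme LDHC is a known source of L-2HG in male germ cells.

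Both steps took away similar shares of the transcript level of these genes. The fall with oxamate ran from 20.0% to 44.2% of the vehicle mean, with a median of 25.1%. Adding octyl-L-2HG took away a further 20.1% to 53.1% of the oxamate mean, with a median of 27.8%. With both compounds the 65 genes stood 37.6% to 69.8% below vehicle, and the median was 46.9%. In 43 genes the larger percentage was lost at the octyl-L-2HG step and in 22 at the oxamate step, and 19 genes lost 50% or more in all. On the log2 scale the oxamate step made up 28.5% to 61.9% of the total fall.

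As the rule required, the fall was shared by all libraries of a group. Taking each gene's vehicle mean as 100%, the median gene stood at 97.9% to 100.3% in the vehicle libraries, at 69.7%, 77.8% and 73.8% in oxamate libraries 4, 5 and 6, and at 51.8%, 53.3% and 53.5% in libraries 7, 8 and 9. The gap between neighbouring groups was often narrow. Dividing the lowest vehicle library by the highest oxamate library gave 1.01 to 1.42, with a median of 1.18, and dividing the lowest oxamate library by the highest library with both compounds gave 1.01 to 1.89, with a median of 1.16. Within a group the SD was typically 6.36% of the mean with vehicle, 8.47% after oxamate and 7.63% with both compounds, as medians over the 65 genes.

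**Figure D1:**
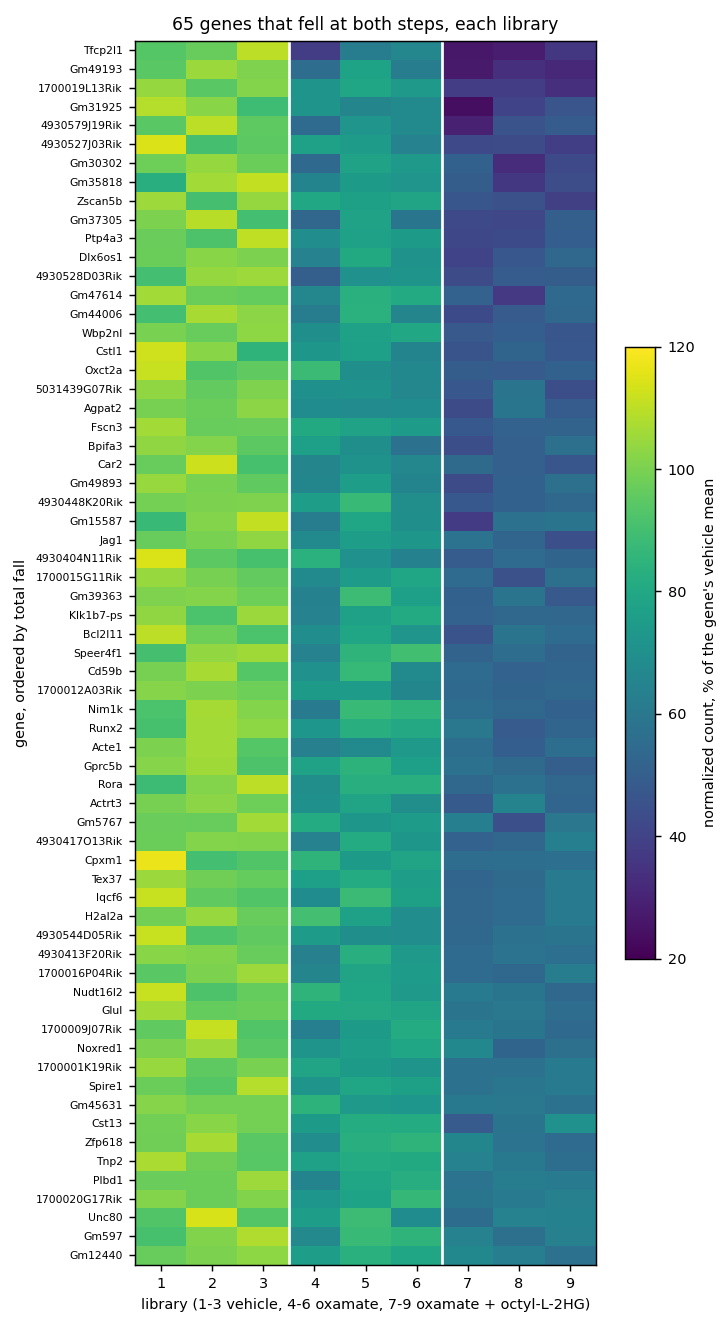
Normalized counts of the 65 genes (rows) in the 9 libraries (columns), as a percentage of each gene's vehicle mean and ordered from the largest total fall (Tfcp2l1, 69.8%) to the smallest (Gm12440, 37.6%). Colour steps down from libraries 1-3 to 4-6 and again to 7-9 in every row, as the rule requires.

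Of the 65 genes, 49 were called lower with oxamate, where 1.22% of all 25128 genes tested were called lower, by the quasi-likelihood test of edgeR at an adjusted p (Benjamini-Hochberg) of 0.05. For the addition of octyl-L-2HG to oxamate 62 were called lower, beside 8.06% of all genes. Both steps were called in 47, beside 0.378% of all genes, and all 65 were called lower with both compounds against vehicle, beside 10.6%. The rule had already used these contrasts, so nothing is read from the counts. The 47 became 28, 22, 28, 26 and 29 without library 2, 5, 6, 7 or 8, and 31 when only the libraries of the groups compared were fitted. The members not called at the octyl-L-2HG step were Unc80, Gm15587 and 1700009J07Rik. The median log2 fold change of the members was -0.41 for oxamate against vehicle, -0.51 for both compounds against oxamate and -0.94 for both compounds against vehicle, and over all genes tested it was -0.01, -0.04 and -0.05.

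The rule was met by few genes. Of 10715 genes with a mean of at least 100, 239 had an oxamate mean of at most 0.8 times vehicle and 1046 had a mean with both compounds of at most 0.8 times oxamate. Both ratios were met by 84 genes. With the condition that libraries do not overlap, 202 genes met the oxamate step, 960 met the later step and 67 met both, the 65 members with Ddr1 and Cobll1. Of the 202 genes, 17 rose again with no overlap, by the inverse of the 0.8 limit or more. The oxamate libraries enter both ratios, so nothing is read from these overlaps. The mirror rule, a rise of that size at each step, chose 38 genes.

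Several genes lay close to the limits. Just inside the oxamate limit were Gm597, Glul and Tnp2, with ratios to vehicle of 0.7997, 0.7989 and 0.7985, and just outside it were Trim42, Ntrk3 and Fam71b with 0.8011, 0.8018 and 0.8034. Just inside the limit on the later step were Plbd1, 1700009J07Rik and 4930544D05Rik, with ratios to oxamate of 0.7991, 0.7945 and 0.7928. Prss52, Gm47814 and Prm1 fell just outside it with 0.8068, 0.8079 and 0.8129. At the level limit, Zscan5b was kept with a mean of 104.7 and Gm35025 was lost with 96.9.

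**Figure D2:**
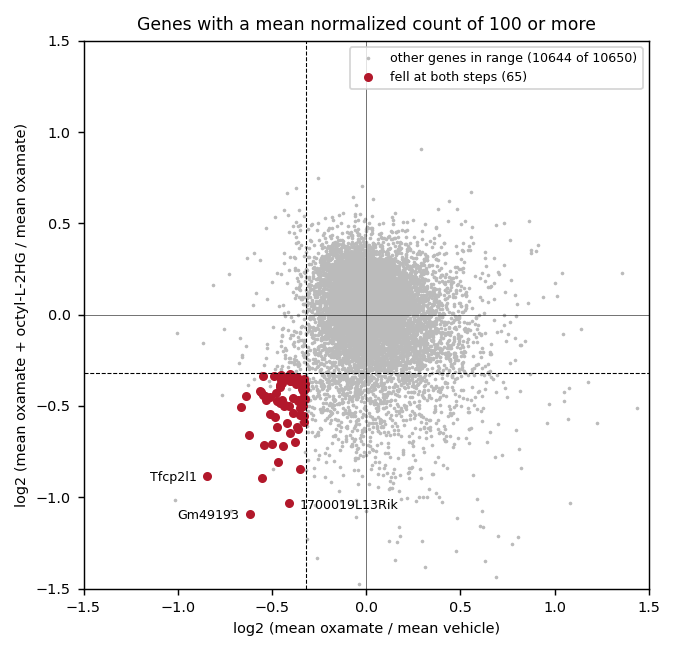
Log2 ratio of group means for oxamate over vehicle (x axis) and for both compounds over oxamate (y axis), for genes whose mean normalized count was 100 or more. Red points are the 65 members, which lie in the lower left corner beyond the dashed limits at a ratio of 0.8, and grey points the other genes (10644 within the axes, 6 outside). Grey points in that corner had overlapping libraries or were left out by name, and among members Tfcp2l1, Gm49193 and 1700019L13Rik lie farthest out.

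The promoters of many of these genes held few CG dinucleotides, a feature that the rule did not use. RefSeq promoters were matched by symbol for 44 of the 65 genes, 67.7%, too few to describe the whole set. For the 42 protein-coding members 34 matched, 81.0%, and the comparison was limited to protein-coding genes. The 250 bases before the start held a median of 3 CG in the members, against 16 in the 7403 protein-coding genes with a mean of at least 100 and 16 in the 3572 of those with a mean under 1000, where most members lie. At most 2 CG were found in 16 of the 34 members, 47.1%, in 7.08% of the 7403 genes and in 0 of the 32 matched genes that rose at both steps, where the median was 21. Few CG were also frequent among coding genes that held level with oxamate, at 0.9 to 1.1 times vehicle, and fell only when octyl-L-2HG was added. There the median was 10 and at most 2 CG were found in 56 of 245 genes, 22.9%, although 78.8% of that set matched a promoter, too few for a full comparison. Whether the members differ from that set was not tested. This comparison was chosen after the promoters had been seen and is given with no test.

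To show the contrast, the 250 bases before the RefSeq start are printed for 4 members with few CG and 2 with many, 5′ to 3′ on the strand of the gene, in build GRCm38.p6 and with each CG in capitals. Tnp2 lies on the minus strand at chr16:10788656-10788905, H2al2a on the minus strand at chr2:17996959-17997208, Fscn3 on the plus strand at chr6:28427651-28427900 and Cst13 on the plus strand at chr2:148819849-148820098. Jag1 lies on the minus strand at chr2:137116521-137116770 and Glul on the plus strand at chr1:153899679-153899928.
Tnp2: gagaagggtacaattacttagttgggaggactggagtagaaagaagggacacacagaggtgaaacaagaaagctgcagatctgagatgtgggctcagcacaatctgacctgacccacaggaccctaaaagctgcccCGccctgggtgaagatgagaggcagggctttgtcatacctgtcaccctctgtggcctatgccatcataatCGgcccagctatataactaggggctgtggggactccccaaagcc
H2al2a: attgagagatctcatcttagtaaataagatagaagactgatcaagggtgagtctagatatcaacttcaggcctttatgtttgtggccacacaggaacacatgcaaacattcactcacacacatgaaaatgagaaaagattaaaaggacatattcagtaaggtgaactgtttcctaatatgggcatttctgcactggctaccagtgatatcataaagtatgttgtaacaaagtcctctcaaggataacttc
Fscn3: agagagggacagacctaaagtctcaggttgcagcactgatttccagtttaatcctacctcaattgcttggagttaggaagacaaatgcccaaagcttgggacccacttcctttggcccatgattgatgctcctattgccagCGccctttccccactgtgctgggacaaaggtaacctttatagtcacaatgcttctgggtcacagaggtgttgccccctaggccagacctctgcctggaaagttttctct
Cst13: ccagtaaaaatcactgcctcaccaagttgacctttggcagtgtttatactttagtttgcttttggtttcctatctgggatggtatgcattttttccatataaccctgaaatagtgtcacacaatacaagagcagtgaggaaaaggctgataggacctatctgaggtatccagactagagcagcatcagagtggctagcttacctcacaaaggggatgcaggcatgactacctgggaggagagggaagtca
Jag1: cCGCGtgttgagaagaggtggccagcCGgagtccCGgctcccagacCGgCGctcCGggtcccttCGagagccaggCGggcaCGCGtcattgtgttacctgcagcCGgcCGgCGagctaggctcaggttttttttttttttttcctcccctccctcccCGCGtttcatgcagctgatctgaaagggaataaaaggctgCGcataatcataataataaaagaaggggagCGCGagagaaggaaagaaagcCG
Glul: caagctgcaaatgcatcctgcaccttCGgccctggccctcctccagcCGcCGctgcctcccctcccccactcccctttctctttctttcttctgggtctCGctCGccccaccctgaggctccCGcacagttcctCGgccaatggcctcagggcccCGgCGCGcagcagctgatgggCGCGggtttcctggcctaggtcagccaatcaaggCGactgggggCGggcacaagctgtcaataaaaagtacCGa
Tnp2 held 2 CG, Fscn3 held 1, and H2al2a and Cst13 held 0, whereas Jag1 held 20 and Glul held 15. GC content ranged from 37.2% in H2al2a to 53.2% in Tnp2 among the first 4, and was 57.2% in Jag1 and 64.8% in Glul.

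Among short motifs searched on both strands, GGGCGG, the core of the GC box, occurred before 9 of the 34 coding members, 26.5%, and before 60.3% of the coding genes with a mean of at least 100. This motif itself contains a CG. CCAAT occurred in 20.6% of the members and 41.5% of those genes, and TGACG, the short site bound by CREB and CREM, in 14.7% and 31.3%. This short site contains a CG as well. The full site TGACGTCA, which contains the shorter one, matched before 0 of the 34 and before 3.34% of those genes. CACGTG, which also contains a CG, was found in 5.88% and 10.3%. For TGANTCA the shares were 2.94% and 5.27%. TATAAA was found in 8.82% of the members and 7.71% of those genes. CATGCGC, which contains a CG too, matched before 0 of the 34 and before 7.44% of those genes. GGAATG likewise matched before 0 of the 34 and before 12.3%. Motifs that contain a CG can be expected less often in promoters with few CG. Whether their shares in the members were lower beyond that was not tested. That letters are missing from this window says nothing about the binding of any factor. Over the coding genes tested, at any level, GGGCGG was found in 55.1%, CCAAT in 39.6% and TGACG in 26.5%.

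**Figure D3:**
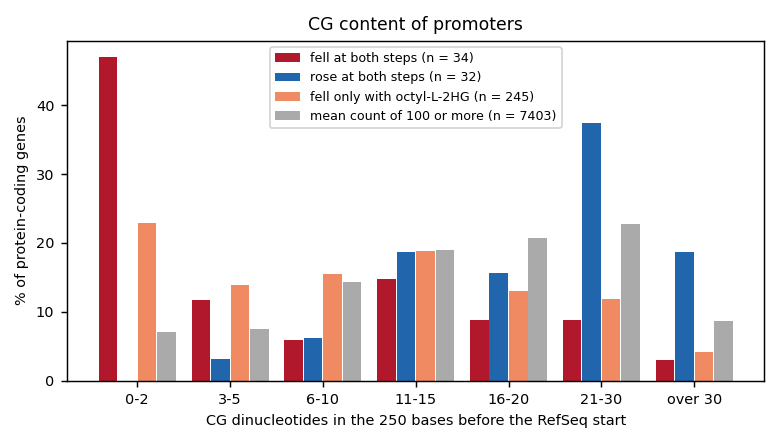
Share of protein-coding genes (y axis, percent) by the number of CG dinucleotides in the 250 bases before the RefSeq start (x axis), for members, for genes that rose at both steps, for genes that fell only with octyl-L-2HG (78.8% matched) and for genes whose mean normalized count was 100 or more. The lowest class holds 47.1% of the members, 22.9% of the genes that fell only with octyl-L-2HG and none of those that rose.

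Members with a known part in building the sperm head or in actin structures numbered 7, and all 7 were called lower at both steps. Of all 65 members 47 were called at both steps, beside 0.378% of all genes tested. The rule used these contrasts and the roles were grouped with results known, so nothing is read from calls by role here or below. The most abundant was Tnp2, transition protein 2, which packs spermatid DNA between histones and protamines. Its normalized counts were 8765, 8025 and 7672 with vehicle, 6291, 6662 and 6581 after oxamate and 5234, 4942 and 4580.5 with both compounds, so that the 3 groups formed separate levels. From 8154 ± 558 (mean ± SD, n = 3 libraries here and below) it fell by 20.1% to 6511 ± 195 and by a further 24.5% to 4919 ± 328. H2al2a, a testis histone H2A variant that works together with transition proteins, had 545 ± 21.6 with vehicle, 429 ± 57.7 after oxamate and 307 ± 22.3 with both compounds. H2al2a has close copies in the genome, so its counts are uncertain.

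Wbp2nl encodes the postacrosomal sheath protein PAWP. It had 886, 858 and 912 normalized counts with vehicle, 617, 683 and 706 after oxamate and 426, 443 and 414 with both compounds, a fall of 24.4% and then 36.1%. The 3 libraries with both compounds lay close together and well below the lowest oxamate library. Fscn3, the testis member of the fascin family of actin bundlers, had 1021, 929 and 934 with vehicle, 777, 748 and 722 after oxamate and 458, 496 and 499.9 with both compounds. Its later step, 35.3%, was larger than its earlier one, 22.1%. Actrt3, an actin-related protein of the sperm head, averaged 496 ± 11.5 with vehicle, 361 ± 25 after oxamate and 274 ± 42.4 with both compounds. Acte1, a member of the actin family, had 294 ± 18.1 with vehicle, 201 ± 15.3 after oxamate and 159 ± 10.7 with both compounds, and with 20.9% it had the smallest loss of the 7 at the later step. Spire1, a nucleator of actin filaments, had 709.8 ± 56.4 with vehicle, 539 ± 25.5 after oxamate and 419 ± 11.5 with both compounds.

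Tex37, a testis gene, stood at 920.5, 863 and 846 with vehicle, 669, 716 and 662 after oxamate and 462, 477 and 538 with both compounds. Its total fall was 43.8%, and it was the 1 of 3 named testis genes that was called at both steps. Iqcf6, which carries a calmodulin-binding IQ motif, fell by 43.7% and Speer4f1, one of a family of spermatogenesis-associated glutamate-rich proteins, by 46.9% in all, and both were called at the octyl-L-2HG step alone. Reads of Speer4f1 can be shared with other copies of that family.

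**Figure D4:**
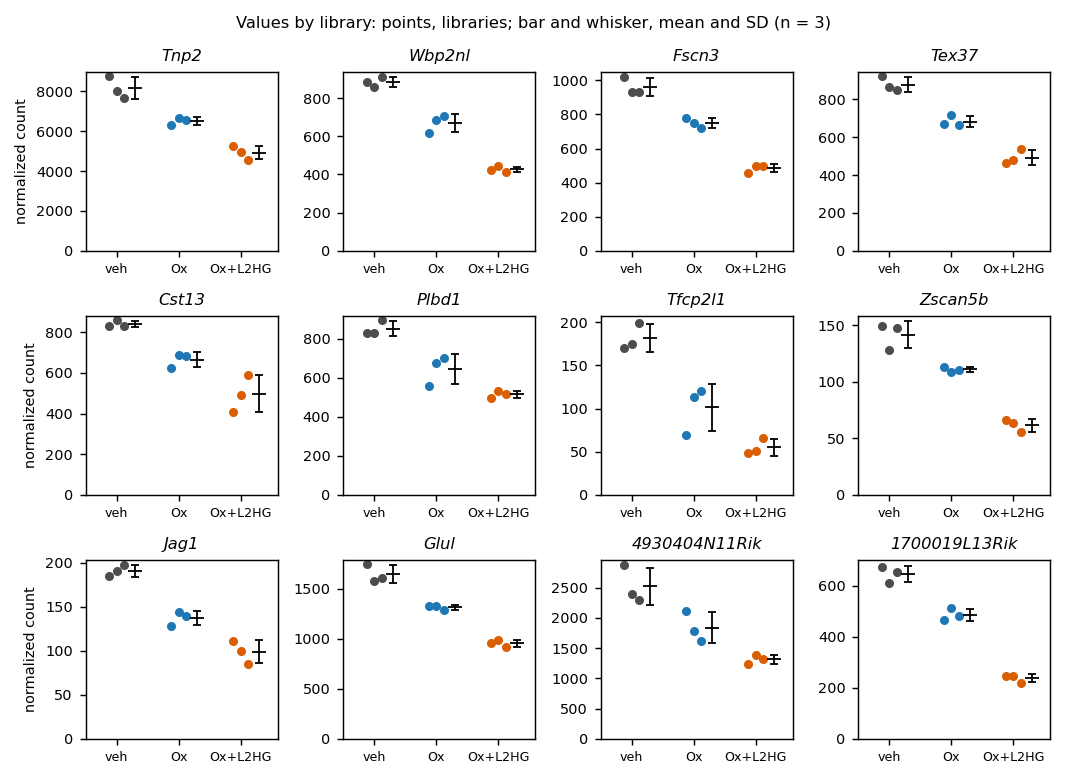
Normalized counts (y axis, from 0) of 12 members in each library, by group (veh, vehicle; Ox, oxamate; Ox+L2HG, oxamate with octyl-L-2HG), with the mean and SD of 3 libraries beside the points. In each panel the groups step down without overlap, from 8154 to 6511 and 4919 on average for Tnp2.

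Secreted or surface proteins and hydrolases gave 6 members, of which 3 were called lower at both steps. Cst13 and Cstl1 belong to the cystatins, which inhibit cysteine proteases. Cst13 had 829.9, 858 and 832 with vehicle, 624, 688 and 683 after oxamate and 409, 492 and 592 with both compounds, and its libraries with both compounds were widely spread. Cstl1 had 217 ± 30.4 with vehicle, 155 ± 12.4 after oxamate and 105 ± 6.99 with both compounds. These cystatins were the closest pair of members along the genome, on chromosome 2 with 4 annotated genes between them. Plbd1, a protein with a phospholipase B domain, had 828, 832 and 897 with vehicle, 556, 677 and 701 after oxamate and 494, 531 and 519.5 with both compounds, and lost 24.4% and then 20.1%. Bpifa3, of a family of secreted lipid-binding proteins, fell by 49.5% in all, Cd59b, an inhibitor of complement on the cell surface, by 46.9%, and Cpxm1, a carboxypeptidase-like protein, by 43.9%.

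Transcription factors numbered 5 and held the member with the largest total fall. Tfcp2l1, known for its part in keeping embryonic stem cells undifferentiated, had 169.7, 175 and 199.6 normalized counts with vehicle, 69.5, 114 and 121 after oxamate and 48.3, 50.7 and 65.5 with both compounds. It lost 44.2% with oxamate and 45.8% of the rest with octyl-L-2HG. Library 4 lay far below libraries 5 and 6 for this gene and only just above library 9. Zscan5b, a zinc finger protein with a SCAN domain, had 149, 128 and 147 with vehicle, 113, 109 and 111 after oxamate and 66.3, 63.4 and 55.2 with both compounds. Its loss was mostly at the later step, 44.5% after 21.6%. Runx2, best known from bone, had 311 ± 25 with vehicle, 244 ± 16.4 after oxamate and 167 ± 17.9 with both compounds, and Rora, a nuclear receptor of the circadian clock, had 339 ± 36.9 with vehicle, 266 ± 26.3 after oxamate and 186 ± 8.58 with both compounds. Zfp618, a zinc finger protein, fell by 40.4% in all. Tfcp2l1 and Rora were the 2 of the 5 that were called at both steps.

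Signalling proteins, a channel subunit and a cell death gene made up 6 members, 4 of them called at both steps. Jag1, a ligand of Notch receptors, had 185, 190.5 and 198 with vehicle, 129, 144 and 139 after oxamate and 111, 100.3 and 85.2 with both compounds. Its steps were nearly equal, 28.1% and 28%. Ptp4a3, a membrane-anchored tyrosine phosphatase, had 188 ± 17.8 with vehicle, 138 ± 8.06 after oxamate and 83.9 ± 8.41 with both compounds. Gprc5b, an orphan receptor, had 375 ± 26.3 with vehicle, 299 ± 16.4 after oxamate and 203 ± 13.4 with both compounds. Bcl2l11 encodes BIM, an activator of mitochondrial cell death, and had 281 ± 26.4 with vehicle, 206 ± 14.4 after oxamate and 149 ± 19 with both compounds. Nim1k, a kinase related to AMPK, fell by 46.6% in all and Unc80, a subunit of the sodium leak channel NALCN, by 38.8%.

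Metabolic enzymes also numbered 6, and 5 were called at both steps. Glul, glutamine synthetase, had 1746, 1581 and 1604 normalized counts with vehicle, 1329, 1322 and 1288 after oxamate and 959, 988 and 916 with both compounds, with little spread within a group. It fell by 20.1% and then by 27.3%. Oxct2a, the testis form of the enzyme that activates ketone bodies, had 518 ± 51.9 with vehicle, 388 ± 59.7 after oxamate and 257 ± 5.9 with both compounds. Its near-identical copy Oxct2b had 443 ± 26.1, 369 ± 28.8 and 281 ± 13.5, so reads of this pair may have been split, whereas Oxct1, the form of other tissues, had 1639 ± 123, 1630.1 ± 151 and 1735 ± 33.2. Agpat2, which makes phosphatidic acid, had 369 ± 9.56 with vehicle, 253 ± 1.22 after oxamate and 186 ± 29.6 with both compounds. Car2, a carbonic anhydrase, had 217 ± 24.1 with vehicle, 147 ± 6.53 after oxamate and 109.5 ± 8.41 with both compounds. Noxred1, with an oxidoreductase domain that binds NADP, fell by 41.4% in all and Nudt16l2, of the Nudix hydrolases, by 42.3%.

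A further 9 protein-coding members are known by number only, and 7 of them were called at both steps. 4930404N11Rik had 2875, 2385 and 2293 with vehicle, 2111, 1778 and 1608 after oxamate and 1235, 1386 and 1312 with both compounds. It overlaps Mfsd12 on the other strand, and Mfsd12 moved the opposite way, from 1327 to 2433 and 3114, called higher at both steps (log2 fold change 0.88, adjusted p = 2.46e-05, and 0.33, adjusted p = 0.0419, by edgeR's quasi-likelihood test). 1700001K19Rik had 2411, 2198 and 2306 with vehicle, 1804, 1719.9 and 1653 after oxamate and 1323, 1319.9 and 1422 with both compounds, losing 25.1% and 21.5%. Gm30302 had 291, 309.9 and 290.3 with vehicle, 161, 231 and 219 after oxamate and 152, 96.8 and 125 with both compounds. Here the lowest oxamate library, 4, was only slightly above the highest library with both compounds, 7. The other 6 in this group, 5031439G07Rik, 1700015G11Rik, 1700012A03Rik, Gm5767, 4930544D05Rik and Gm597, lost between 38.5% and 50.1% in all.

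Genes that do not code for protein numbered 20 non-coding RNA genes and 3 pseudogenes, 35.4% of the members, beside 33.3% of all genes tested, 14.1% of those with a mean of at least 100 and 22.5% of those with a mean of 100 to 1000. Of the 20, 15 were called at both steps, and all 3 pseudogenes were. Gm49193, a transcribed processed pseudogene, had 279.9, 311 and 298 with vehicle, 165, 231 and 183 after oxamate and 80.9, 99.1 and 91.7 with both compounds, and 53.1% was the largest loss of any member at the later step. 1700019L13Rik, an antisense RNA, had 673, 609 and 654 with vehicle, 464, 512 and 479 after oxamate and 246, 246 and 219 with both compounds. It lost 24.8% and then 51.2%. The lowest vehicle library was 1.19 times the highest oxamate library, and the lowest oxamate library was 1.89 times the highest with both compounds. Csrnp1, on the other strand at this place, had 1502, 1558 and 1032 on average and was called lower at the later step as well (log2 fold change -0.62, adjusted p = 4.54e-05, by edgeR's quasi-likelihood test).

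4930527J03Rik, a processed transcript, had 1162, 919 and 961 with vehicle, 782, 765 and 652 after oxamate and 428, 437 and 391 with both compounds. Gm31925 had 191, 179 and 156 with vehicle, 126, 115 and 118 after oxamate and 41.6, 70.3 and 81.4 with both compounds, the last group being the most uneven. Gm35818 had 138, 175 and 183 with vehicle, 108, 123 and 119 after oxamate and 82, 59.9 and 72.1 with both compounds. These long intergenic RNAs were among the members with the lowest levels. The antisense RNA 4930579J19Rik had 154, 179 and 155 with vehicle, 89.5, 117 and 109.6 after oxamate and 47.2, 73.8 and 79.6 with both compounds. Gm37305 had 196, 214 and 177 with vehicle, 104, 152 and 115 after oxamate and 82, 80.7 and 98.3 with both compounds, and library 4 was close to library 9. Dlx6os1, the RNA made from the strand opposite Dlx6, had 215 ± 5.1 with vehicle, 155 ± 17.6 after oxamate and 101 ± 14.3 with both compounds.

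In all, 21 members overlap a tested gene, 19 of them on the opposite strand. Of the 25 overlapping genes, 0 were called lower with oxamate by edgeR and 0 by DESeq2, with 2 at an unadjusted p under 0.05. Over all genes tested edgeR called 1.22% lower at that step. When octyl-L-2HG was added edgeR called 3 of the 25 lower, beside 8.06% of all genes. These were Gcc1 beside Fscn3, Dlx6 beside Dlx6os1 and Csrnp1 beside 1700019L13Rik. In the other direction 2 of the 25 were called higher with oxamate by both tools, Mfsd12 and Ccnl1, and 1 at the later step, Mfsd12. Over all 25128 genes edgeR called 997 and 798 higher at these steps. With so few overlapping genes, nothing is read from their counts. Ccnl1, a cyclin gene opposite Gm37305, averaged 1682, 2150.2 and 2161 (log2 fold change 0.36 with oxamate, adjusted p = 0.00455 by edgeR's quasi-likelihood test). The kit preserved strand, but the strand setting of the counting is not given in the sources used here, so reads of such pairs cannot be assigned with certainty.

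In levels per length, Tnp2 led with 14718 normalized counts per kilobase of transcript with vehicle, far above 4930404N11Rik with 3507, 1700001K19Rik with 3440.4 and Glul with 2989. 4930404N11Rik and 1700001K19Rik did not differ beyond their spread. The median member had 312 per kilobase and the median gene with a mean of at least 100 had 627. By raw level 61 of the 65 had a mean normalized count under 1000, and 27 lay under 200.

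The members also had fewer exons and a shorter genomic span than most genes at these levels. They had a median of 4 exons in the transcript with most exons and a genomic span of 8676 bases, whereas genes with a mean of at least 100 had 8 exons and 22288 bases, and those with a mean of 100 to 1000 had 7 exons and 19552 bases. Among protein-coding genes alone the members had 6 exons and those with a mean of at least 100 had 10. The 38 genes that rose at both steps had 14 exons and 39080.5 bases and all coded for protein. The 398 genes that were level with oxamate, at 0.9 to 1.1 times vehicle, and fell only when octyl-L-2HG was added, had 5 exons and 12010.0 bases, and 21.9% of them did not code for protein. The coding genes of that set also had a median of 6 exons, with a span of 17114 bases against 12799 in the coding members. Transcript length differed less, with medians of 1096 bases in the members and 1286 in genes with a mean of at least 100, and the median GC content of transcripts was 50.2% and 49.4%.

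No member lay on the X chromosome, which carried 274 of the 10715 genes with a mean of at least 100, or 2.56%. The same held for chromosomes 8 and 19, which carried 5.41% and 3.17% of those genes, so this was not particular to X. Chromosome 2 carried 9 members, 13.8%, and 7.33% of those genes, and chromosome 6 carried 8 members, 12.3%, and 4.72%. Names made of a number, as Gm or Rik genes, were borne by 46.2% of the members, 16.2% of genes with a mean of at least 100, 24.0% of those with a mean under 1000 among them, and 34.4% of all genes tested. These shares are descriptions of a chosen set and were not tested.

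Tnp2 was the member among 12 round spermatid markers, and the other genes of sperm chromatin in that list moved with it. Prm1 and Prm2, the protamines, and Tnp1, the other transition protein, were each called lower at both steps but missed the rule's limits. Prm1 went from 4915 ± 313 to 3591 ± 49.7 and 2919 ± 54.2, with log2 fold changes of -0.45 (adjusted p = 0.000224) and -0.32 (adjusted p = 0.0027) by edgeR's quasi-likelihood test. For Prm2 the levels were 6566 ± 343, 5030.4 ± 81.9 and 4166 ± 108, with adjusted p = 0.000746 and 0.00378. Tnp1 had 6912 ± 426, 5738 ± 269.8 and 4769 ± 136, with adjusted p = 0.0192 and 0.00611. All of the oxamate libraries lay below all of the vehicle libraries for these genes, and all of those with both compounds lay below oxamate.

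The other 8 spermatid markers were not called at both steps. With oxamate 4 of the 12 were called, the 4 genes of sperm chromatin, each of them lower. With octyl-L-2HG added 7 were called, again each of them lower, the further 3 being Spaca3, Tssk3 and Catsper3. DESeq2 called 1 of the 12 higher at each step. Acr, the protease acrosin, stood at 105% of vehicle with oxamate and 117% with both compounds, and Acrv1, another acrosomal protein, at 103% and 120.4%. The summed counts of the 12 markers were 76820.3 to 79720.3 in the vehicle libraries, 73347.5 to 74928.4 with oxamate and 70502.5 to 71748.7 with both compounds, and the part of this in the falls of the members was not tested. All 12 spermatid markers were well detected, the lowest being Tssk3 with an average of 3067 with vehicle and the highest Acr with 11621. Some spermatocyte markers stood as high, among them Syce1 with 16325, Ccna1 with 13367 and Smc1b with 10049, so levels of these markers alone do not tell the labelled spermatids from spermatocytes. The authors estimated from DNA content after sorting that their round spermatid population was wholly haploid. The 12 spermatocyte markers summed to 50916.1 to 55118.2 with vehicle, 48959.0 to 51306.8 after oxamate and 54205.5 to 57967.0 with both compounds. At the later step, where the spermatid sum was lower, every library with both compounds thus had a higher spermatocyte sum than every oxamate library. Sycp2 and Syce1 were called higher at that step by edgeR and Syce2 lower, and the part of this in the falls of the members was not tested.

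**Figure D5:**
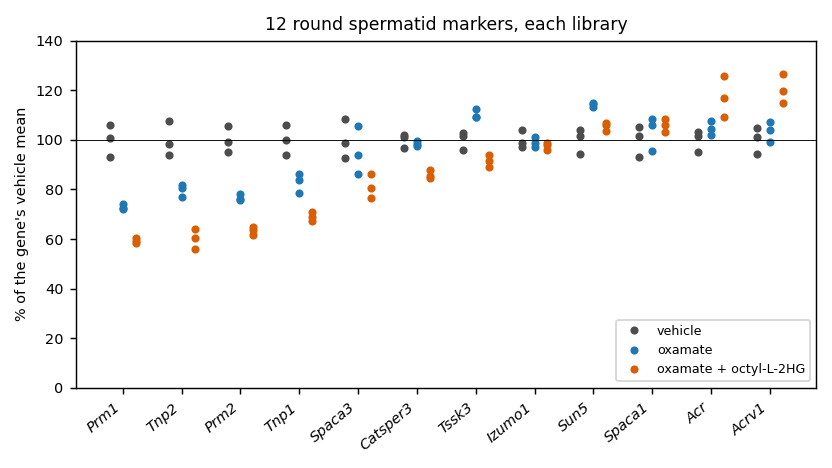
Normalized counts of 12 round spermatid markers in each library as a percentage of the gene's vehicle mean (y axis), ordered by the level with both compounds. Prm1, Tnp2, Prm2 and Tnp1 at the left step down at both treatments to between 59.4% and 69.0% on average, while Acr and Acrv1 at the right reach 117% and 120.4%.

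Most markers of other testis cells were scarce, and their lists moved in mixed directions. C1qb, a complement gene of macrophages, had 51.1, 25.1 and 14.3 normalized counts on average with vehicle, oxamate and both compounds, called lower at both steps (adjusted p = 0.00239 and 0.038 by edgeR's quasi-likelihood test). DESeq2 called it at the oxamate step and 0 of the list's 5 at the later one, where edgeR had 1 at an unadjusted p under 0.05. The 5 tested macrophage and leukocyte markers summed to 175.9 to 214.3 with vehicle, 138.1 to 152.4 with oxamate and 130.3 to 154.5 with both compounds, and 1 of the 5 was called lower at each step by edgeR. Adgre1, a surface marker of macrophages, did not reach 100 in any library, and Cd68 was at or near 0. Lum, a fibroblast gene, had 49.4, 29.9 and 17.7, with adjusted p = 0.0486 and 0.0654. The 10 peritubular and fibroblast markers summed to 170.6 to 182.9, 160.0 to 194.0 and 138.3 to 148.2, and Lum was the 1 of the 10 that edgeR called, at the oxamate step, where DESeq2 called 0. Their median log2 fold change was 0.09 with oxamate and -0.35 at the later step. Sertoli cell markers summed to 171.5 to 200.6, 145.8 to 232.4 and 200.3 to 241.4, and 0 of 5 were called at either step by edgeR or DESeq2, with 0 at an unadjusted p under 0.05. Their defining genes Sox9 and Wt1 were at or near 0. Leydig cell markers summed to at most 41.2, with 0 of 4 called by edgeR or DESeq2 and 1 at an unadjusted p under 0.05, at the later step. Red blood cell markers had too few counts to be tested. The 6 endothelial markers summed to 536.4 to 590.7, 551.6 to 570.1 and 463.8 to 491.5, with 1 called higher with oxamate and 1 lower at the later step by edgeR, and 0 at either step by DESeq2. The 8 spermatogonial markers summed to 268.3 to 282.4 with vehicle, 290.7 to 306.7 after oxamate and 273.3 to 292.8 with both compounds. The oxamate sums lay above the vehicle sums, but Gfra1 alone went from 125.6 to 161.0 on average. The median log2 fold change of the list was -0.11 with oxamate. Of the 8, 0 were called at either step by edgeR or DESeq2, with 2 at an unadjusted p under 0.05 with oxamate and 0 later. The part of these cells in the falls of the members was not tested.

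The Notch pathway was the only signalling list that held a member, Jag1. Of its 22 tested genes 1 was called lower and 2 higher with oxamate, by edgeR as by DESeq2. When octyl-L-2HG was added edgeR called 3 lower, whereas DESeq2 called 2 lower and 1 higher. Maml1, a coactivator of Notch transcription, rose from 310 ± 34.3 to 522 ± 36.1 with oxamate (log2 fold change 0.76, adjusted p = 3.6e-05 by edgeR's quasi-likelihood test) and stood at 485 ± 11.2 with both compounds. Nrarp, a Notch feedback regulator, went from 75.6 ± 14.2 to 157 ± 11.6 and then to 117 ± 14.2, called in opposite directions at the 2 steps. Notch4, a receptor, averaged 602, 691 and 489.9 and was called lower at the later step. Jag2, another ligand, had 123, 138 and 157 on average. The median log2 fold change of the 22 genes was 0.03 with oxamate and 0.02 with octyl-L-2HG added. The other 13 pathway lists held 0 members, and they ran from actin and adhesion genes to calcium release.

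The genes of the inhibited enzyme were not called at either step. Ldhc had 165402 ± 12181, 153532 ± 16295 and 149093 ± 5187 normalized counts, with adjusted p = 0.528 and 0.648 by edgeR's quasi-likelihood test. For Ldha the levels were 45050.0 ± 1876, 41673 ± 2203 and 43732 ± 289, with adjusted p = 0.392 and 0.744. Ldhb was near 0, at 4.56, 3.69 and 2.75 on average.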

How the data were processed

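RNA of RS cells was poly(A)-selected and sequenced from 3 libraries per group. The authors trimmed the reads with fastx_toolkit and cutadapt 2.10, aligned them with TopHat2 2.1.1 to the mouse genome (GRCm39, Ensembl annotation; the submitters' processing notes also name WBcel235, a worm build), and deposited a raw count for each gene from HTSeq 2.01. They also deposited a normalized signal, the count divided by the DESeq2 1.36.0 size factor of its library, here called the normalized count. Of 55414 genes listed, 6250 have no counts.

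Members were found with normalized counts. Calls came from edgeR 4.0.16 in R 4.3.3 on the deposited counts of 25128 genes, with TMM and all 9 libraries in one quasi-likelihood fit, at a Benjamini-Hochberg adjusted p of 0.05. The lowest value of a member in any library was 41.6 normalized counts, so counting error is a larger part of the spread for low members. Values in every library are given for the 10 members with the lowest ratio of both compounds to vehicle, the 10 with the highest mean, and those in a gene list. Genes at the limits of the rule and those of LDH were named by rule too. Other genes that are no members (marker and Notch genes, overlapping genes and copies) and the count of CG were chosen after their values were seen. The members, their grouping by role and the gene lists were chosen with earlier results of these data known. Lengths, exons, biotypes and gene order came from GENCODE annotation of GRCm38, matched by identifier, and promoters from RefSeq (GRCm38.p6), matched by symbol. Alternatives were DESeq2 1.42.0, other scalings, filters, limits and left-out libraries. The script was tested on simulated data.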

Additional observations from a re-analysis of the deposited data

How the results depend on the processing

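No paired analysis was possible because the libraries are numbered 1 to 9 across the groups. The rule chose 65 genes, 26 with a ratio limit of 0.75, 130 with 0.85, 100 with a minimum mean of 50, 38 with 200, and 57 to 83 with 1 library left out. With TMM-scaled counts it chose 67, of which 62 were among the 65. The members called at both steps, 47, became 14 at an adjusted p of 0.01, 31 with only the groups compared in the fit, and 22 to 48 with 1 library left out. Of 660 values recomputed for the 20 members named with all libraries, 632 kept their side of the threshold, 24 lost the call, 4 gained it and each kept its direction.

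Over all genes, the 306 called lower with oxamate became 96 at an adjusted p of 0.01, 155 with only the groups compared, and 121 (without library 2) to 705 (without library 4). The 997 called higher became 506, 590 and 538 to 1583. For octyl-L-2HG added to oxamate, the 2025 called lower became 1040.0 at 0.01 and 1119 to 2840.0 with a library left out. The 798 called higher became 1234 by DESeq2, 421 with library totals, 1429 with no filter on low counts, 221 at 0.01 and 242 to 1575 with a library left out. For both compounds against vehicle, the 2655 called lower became 1581 at 0.01 and 1800.0 to 3383 with a library left out. The 1879 called higher became 1231 with library totals, 1026 at 0.01, 2850.0 with only the groups compared and 1170.0 to 2811 with a library left out. A stricter threshold or fewer libraries accounts for part of this by construction, and the cause of the other changes was not tested.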
